A study of Mus musculus with 9 samples.

Results

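The mitochondrial carrier family Slc25 was described in 9 mouse liver libraries of messenger RNA. Its members were chosen by name: every protein-coding gene of the deposited table whose symbol is Slc25a followed by digits, which gave 47 of 34745 genes. The rule itself uses no measured value. Each of 3 groups held 3 libraries from male C57BL/6 mice aged 6 to 8 weeks. The control group is labelled only as control. The D-gal/LPS group received that combination, a model of acute liver failure in which the letters usually stand for D-galactosamine and lipopolysaccharide, and the third group received WZB before D-gal/LPS. Pretreatment with GLUT1 inhibitors is the subject of the series' design text, which leaves the letters WZB unexplained. Doses, times and what the controls received are not stated in the sources used here. Whether replicates came from separate animals is not labelled either, and a p-value then covers only the spread among these libraries.

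Carriers of this family sit mostly in the inner mitochondrial membrane and exchange one solute for another between cytosol and matrix. They bring ADP and phosphate to the ATP synthase, export citrate and malate for lipid and glucose synthesis, move the amino acids of the urea cycle, carry acylcarnitines to beta-oxidation and supply the matrix with cofactors. In liver, much of the traffic between cytosolic and mitochondrial steps of these pathways passes through them.

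Library totals ran from 15072509 to 18106895 counts. The carriers took 0.274% to 0.288% of all counts in control, 0.193% to 0.200% in D-gal/LPS and 0.219% to 0.245% in WZB + D-gal/LPS. Levels below are CPM, counts relative to the library's total, with totals scaled by TMM, a method that takes most genes as equal between libraries. Hepatocyte markers summed to 83130 to 83420 CPM in control and to 102800 to 105000 CPM after D-gal/LPS and 134500 to 143500 CPM with WZB, so hepatocyte transcripts were abundant in every library. Of these 6 markers 2 were called higher after D-gal/LPS (median log2 fold change 0.10), and 4 with WZB against either other group. Neutrophil markers summed to at most 5.79 CPM in control and to 323 to 353 CPM after D-gal/LPS, against 237 to 259 CPM with WZB. Erythroid markers summed to 110 to 140, 3587 to 4475 and 424 to 714 CPM in the same order, monocyte and macrophage markers to 55.5 to 66.4, 300.3 to 313 and 161 to 194 CPM, and stellate and fibroblast markers to 85.5 to 87.8, 811 to 856 and 442 to 509 CPM. Of the tested markers 7 of 7 neutrophil, 7 of 7 monocyte and macrophage and 7 of 7 erythroid genes were higher after D-gal/LPS. So were 5 of 5 stellate and fibroblast, 4 of 4 cholangiocyte, 3 of 4 lymphocyte and 4 of 5 endothelial genes. Of the endothelial genes 1 was lower. With WZB against D-gal/LPS alone, 3 neutrophil, 5 monocyte and macrophage and 6 erythroid genes were lower. Lower too were 3 stellate and fibroblast, 3 endothelial and 1 lymphocyte genes, while 1 stellate and 1 endothelial gene were higher. Of all genes 29.1% were higher after D-gal/LPS and 14.7% lower with WZB. The marker sums differ between the same groups as the results below, and their part in those was not tested. In bulk liver, fewer cells of a type and less RNA per cell cannot be told apart.

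After D-gal/LPS the family was lower as a whole, and 1 carrier made most of the difference. The summed level of the 47 carriers was 2602 ± 109.8 CPM in control (SD, n = 3), 1908 ± 17.1 CPM after D-gal/LPS and 2541 ± 238 CPM with WZB. How near the WZB sum stands to control depends on the TMM scaling. As unscaled shares of all counts, the WZB libraries (0.219% to 0.245%) lay below every control library (0.274% to 0.288%). Without Slc25a47, a carrier known mainly from liver, the sums were 2024 ± 105.3, 1828 ± 14.6 and 2468 ± 249 CPM. The sum of the others thus lay in 1812 to 1838 CPM after D-gal/LPS against 1913 to 2123 CPM in control, and in 2286 to 2751 CPM with WZB.

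**Figure D1:**
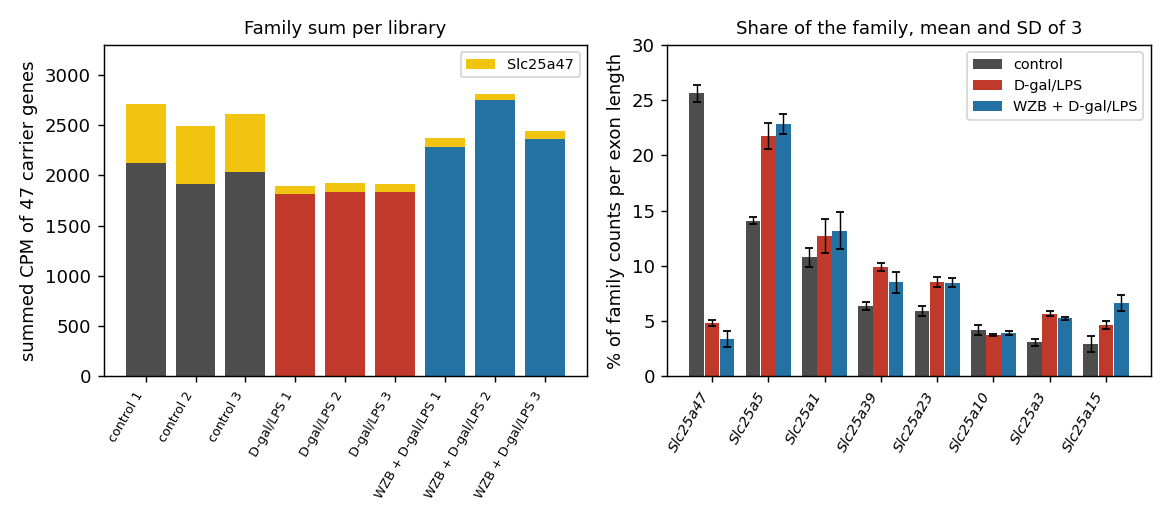
Left, summed CPM of the 47 carriers in each library, with the part of Slc25a47 in yellow; right, share of the family's counts per merged exon length for 8 carriers, bars showing means and error bars the SD of 3 libraries. Slc25a47 is the largest carrier in control at 25.6% and stands at 4.82% after D-gal/LPS, when Slc25a5 leads.

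Levels of different genes can be compared only per length, and 2 lengths were used. The length behind the deposited FPKM values (fragments scaled by gene length and depth) equalled the sum of the distinct exons in GENCODE M21, overlaps counted again, within a tolerance of 0.01 for 73.5% of 19881 genes, and the merged exons for 23.1%. Slc25a47 was among the exceptions: its FPKM implied 1579 bases, against 2985 bases of merged and 4876 of distinct exons. Counts were therefore also divided by the merged exons, and the share of Slc25a47 depends on the choice. By merged exons Slc25a47 held 25.6% ± 0.753 of the family in control (SD, n = 3), 4.82% ± 0.262 after D-gal/LPS and 3.35% ± 0.727 with WZB. By FPKM its share was 48.2% ± 1.29, 11.8% ± 0.467 and 8.19% ± 1.67. It ranked 1 of 47 in control by both lengths, and 6 and 9 in the other groups by merged exons or 2 and 4 by FPKM. The ADP/ATP carrier Slc25a5 was next in control at 14.1% ± 0.293 by merged exons and led both other groups at 21.8% ± 1.17 and 22.8% ± 0.874, values within each other's spread. The citrate carrier Slc25a1 followed at 10.8% ± 0.882 in control, 12.7% ± 1.56 and 13.2% ± 1.70. Slc25a39, needed for glutathione in mitochondria, and the calcium-regulated ATP-Mg/phosphate carrier Slc25a23 took 6.38% ± 0.369 and 5.90% ± 0.436 in control. By merged exons these neighbours do not differ beyond their spread. By FPKM they took 2.78% ± 0.169 and 4.21% ± 0.326, in the other order and apart. The FPKM share of Slc25a5 in control was 7.71% ± 0.128. Slc25a15 ranked 4, 3 and 2 in the 3 groups by FPKM, against 9, 7 and 5 by merged exons.

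Of the 47 carriers 41 passed the filter on low counts and were tested. Slc25a41 and Slc25a54 had no count in any library. Slc25a31, the testis type of ADP/ATP carrier, had 5 counts in 1 control library and 0 elsewhere. The glutamate carrier Slc25a18 had 2, 6 and 1 counts in control, 0 in every D-gal/LPS library and 0, 1 and 0 with WZB. With a floor of 3 counts over the D-gal/LPS group and the control counts taken as exact, control stood 2.85-fold above that floor. The basic amino acid carrier Slc25a2 had 0 to 7 counts per library. Slc25a43 was at 0 in every control, while D-gal/LPS libraries had 10, 6 and 5 counts and WZB libraries 2, 2 and 0. After D-gal/LPS it stood 7.37-fold above a floor of 3 counts over the control group, its own counts again taken as exact. In the fit without a filter, which tested 45 carriers, Slc25a43 was called higher after D-gal/LPS and Slc25a18 was not called lower.

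After D-gal/LPS 14 carriers fell and 6 rose against control by edgeR's quasi-likelihood test at an adjusted p of 0.05. Of all 13583 genes tested 29.3% were lower and 29.1% higher, 58.4% in all, against 20 of 41 carriers (34.1% lower, 14.6% higher). The median log2 fold change was -0.31 for the tested carriers and -0.03 for all genes. Groups did not overlap for 28 of 41 carriers, against 65.5% of all genes. At least 2-fold changes were called for 6 carriers that fell and 4 that rose (12.7% and 18.1% of all genes). The number that fell depended on the processing. With total-count scaling 20 carriers fell and with upper-quartile scaling 19, while 4293 and 4296 of all genes fell in place of 3974. Fits on log2(FPKM + 1) and log2(FPKM + 0.1) gave 20 and 19, with 4412 and 4303 of all genes. With a filter of 5 CPM 11 of 32 tested carriers fell, and 3099 of 9939 genes.

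**Figure D2:**
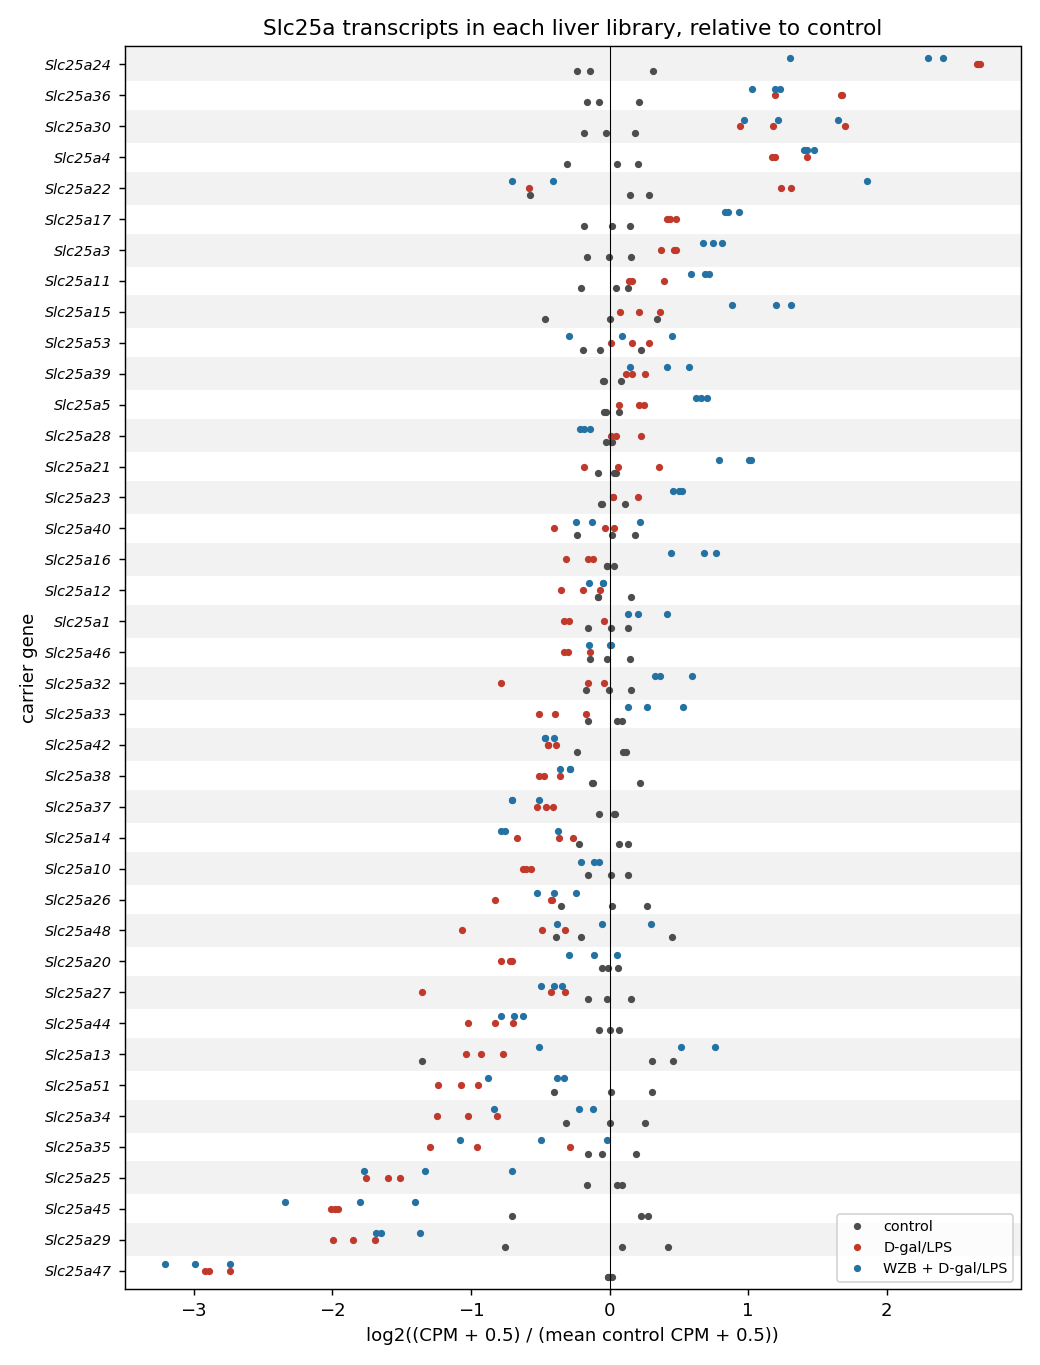
Log2 ratio of CPM (plus 0.5) to the mean of control for 40 of the 41 tested carriers, 1 point per library, ordered by the fitted change after D-gal/LPS. Slc25a47 stands at the bottom and Slc25a24 at the top; Slc25a22 and Slc25a13 spread widely within groups.

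The 6 carriers that fell at least 2-fold were led by Slc25a47, an uncoupling-like carrier found mainly in hepatocytes. Its libraries read 584, 574 and 574 CPM in control, 77.5, 86.1 and 76.0 after D-gal/LPS, then 86.1, 62.2 and 72.3 with WZB. Control libraries lay far above all others and the 2 treated groups overlapped. The log2 fold change after D-gal/LPS was -2.85 ± 0.11 (SE; edgeR adjusted p = 1.09e-10), and 0.861% of the 13583 tested genes had a lower one. With WZB against D-gal/LPS it was -0.12 ± 0.10 (edgeR adjusted p = 0.431), where the total-count scaling gave a call of lower. The gene lies on chromosome 12 from 108851129 to 108856814 (GRCm38).

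Slc25a29, a carrier of basic amino acids, is the neighbour of Slc25a47, ending 15.2 kb before it. It had 49, 65 and 28 counts in the controls; D-gal/LPS libraries had 9, 5 and 7, and those with WZB 11, 7 and 9. Both treated groups lay below all control libraries. Scaled to CPM, the D-gal/LPS libraries (0.330 to 0.520) lay just below those with WZB (0.528 to 0.778), a difference that was not called (edgeR adjusted p = 0.486). The log2 fold change was -2.70 ± 0.45 (SE; edgeR adjusted p = 0.000181). At most 65 counts stand behind a value, against at least 825 for Slc25a47.

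Slc25a45, whose substrate is less well settled, read 23.9, 23.1 and 11.9 CPM in control, 4.51, 4.68 and 4.60 after D-gal/LPS, then 3.47, 5.28 and 7.13 with WZB, the control group apart from both. It fell by 2.09 ± 0.30 on the log2 scale (edgeR adjusted p = 0.000132). Slc25a25, an ATP-Mg/phosphate carrier, read 181, 176 and 152 CPM in control and 49.9, 59.2 and 55.8 after D-gal/LPS, while the WZB libraries stood at 49.3, 103.8 and 67.1, below every control. It fell by 1.63 ± 0.25 (edgeR adjusted p = 0.000740), and 4.82% of its exon bases overlap Naif1 on the other strand, which cannot be told apart without knowing the strandedness. The NAD carrier Slc25a51 read 106, 65.1 and 86.8 CPM in control, 36.3, 44.3 and 40.7 after D-gal/LPS, then 46.6, 68.3 and 66.0 with WZB. It fell by 1.09 ± 0.19 (edgeR adjusted p = 0.000873), with the WZB libraries overlapping control. Slc25a34, at 2.95, 4.65 and 3.81 CPM in control, fell to 1.62, 1.32 and 1.95 (log2 fold change -1.22 ± 0.30, edgeR adjusted p = 0.00324) and read 1.91, 3.47 and 3.20 with WZB, a range that overlaps both other groups.

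**Figure D3:**
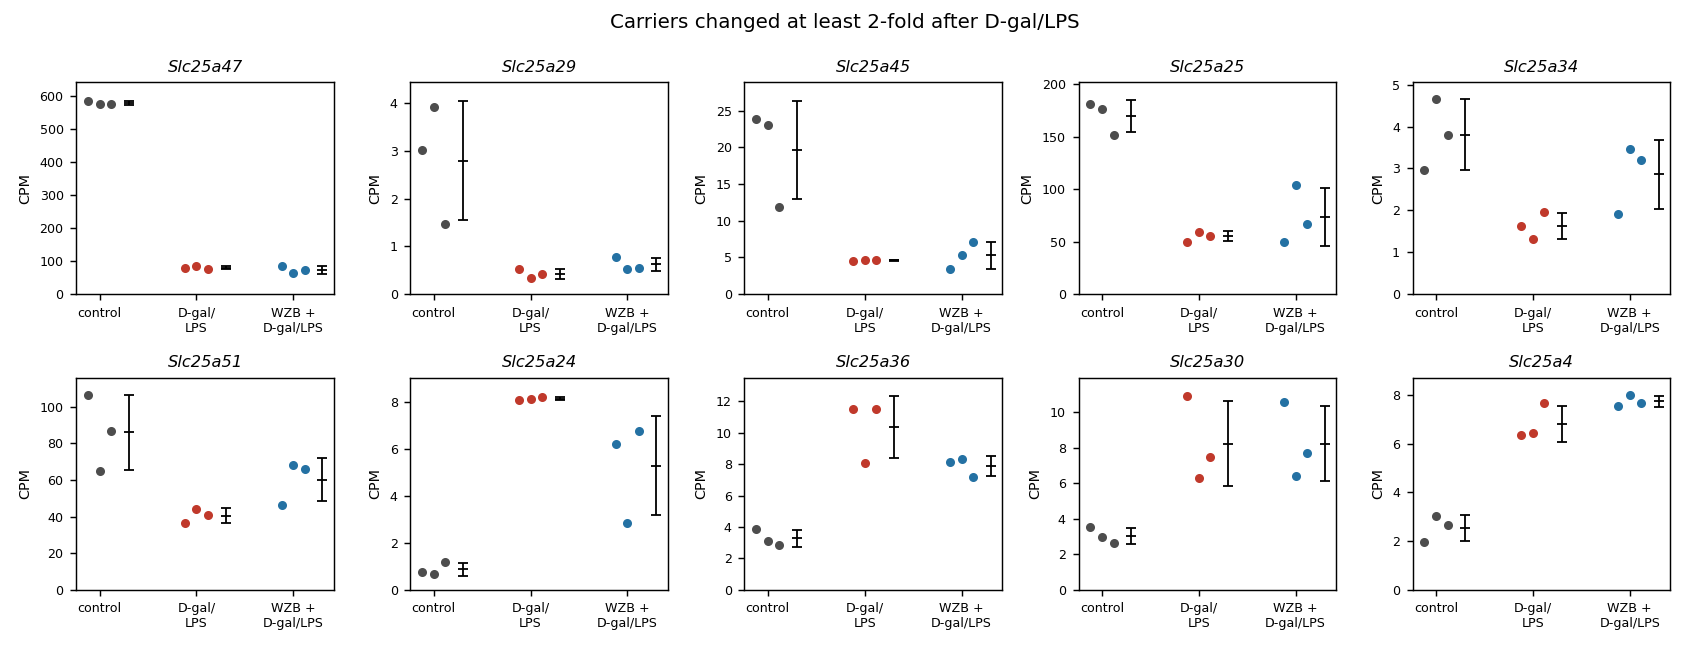
CPM in each library for the 10 carriers that changed at least 2-fold after D-gal/LPS, points for libraries and a bar for mean ± SD of 3; each panel has its own axis. Of the 6 lower carriers, on the first panels, Slc25a47, Slc25a29, Slc25a45 and Slc25a25 stay below control with WZB, while Slc25a34 and Slc25a51 overlap control.

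Promoters are shown for the neighbours that fell, Slc25a47 and Slc25a29, and for Slc25a25 and Slc25a36, the 2 carriers with a cAMP response element, one of which fell while the other rose. The windows are RefSeq's, GRCm38.p6, from 250 bases before to 50 after a start site. They are shown in lower case, 5′ to 3′ on the gene's strand, and capitals mark exact matches on either strand to the GC box (GGGCGG), the CCAAT box (CCAAT), the E-box (CACGTG) and the cAMP response element (TGACGTCA).
Slc25a47, chr12:108850879-108851178, plus strand: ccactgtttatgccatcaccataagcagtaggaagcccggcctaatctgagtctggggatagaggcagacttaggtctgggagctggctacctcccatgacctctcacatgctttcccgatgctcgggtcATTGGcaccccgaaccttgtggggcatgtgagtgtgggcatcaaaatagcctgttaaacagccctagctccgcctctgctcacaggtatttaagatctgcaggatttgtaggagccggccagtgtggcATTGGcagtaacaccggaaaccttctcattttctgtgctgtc
Slc25a29, chr12:108835827-108836126, minus strand: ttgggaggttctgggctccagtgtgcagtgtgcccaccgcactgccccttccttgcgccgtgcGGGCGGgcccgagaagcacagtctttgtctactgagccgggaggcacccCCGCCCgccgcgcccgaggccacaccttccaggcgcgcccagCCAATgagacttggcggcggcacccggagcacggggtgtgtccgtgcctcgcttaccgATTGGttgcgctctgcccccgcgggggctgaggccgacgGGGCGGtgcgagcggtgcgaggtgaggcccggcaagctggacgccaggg
Slc25a25, 1 of its 3 windows, chr2:32424017-32424316, minus strand: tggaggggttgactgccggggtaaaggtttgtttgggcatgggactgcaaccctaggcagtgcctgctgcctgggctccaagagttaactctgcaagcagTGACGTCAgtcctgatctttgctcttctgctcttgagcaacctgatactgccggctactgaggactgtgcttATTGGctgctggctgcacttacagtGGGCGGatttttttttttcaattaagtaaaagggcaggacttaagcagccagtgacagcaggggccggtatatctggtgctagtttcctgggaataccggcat
Slc25a36, chr9:97110992-97111291, minus strand: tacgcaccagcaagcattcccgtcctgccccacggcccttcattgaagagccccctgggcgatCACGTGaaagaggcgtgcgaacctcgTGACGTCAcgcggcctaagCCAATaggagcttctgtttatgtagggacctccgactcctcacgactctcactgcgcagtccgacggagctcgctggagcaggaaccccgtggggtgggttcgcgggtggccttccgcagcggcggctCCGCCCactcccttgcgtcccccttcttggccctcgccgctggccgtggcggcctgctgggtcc
The element begins 150 bases before the start site in this Slc25a25 window and 161 before that of Slc25a36, and 1.79% of all 32851 windows hold it. The window of Slc25a47 holds the CCAAT box at 2 places and no GC box, while 38 of the 46 carrier windows (82.6%) hold a GC box against 35.7% of all windows. Carrier windows had a median GC content of 59.3% against 52.7%. Of the 47 carriers 36 had a window. A match is a description of letters, not a site. The kappaB motif, also searched, was in none of the carrier windows and in 0.155% of all.

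Among carriers that rose after D-gal/LPS, 4 rose at least 2-fold and were low in control. Slc25a24, another ATP-Mg/phosphate carrier, had 12, 11 and 23 counts in control, 140, 123 and 139 after D-gal/LPS, then 88, 38 and 110 with WZB. All D-gal/LPS libraries lay above all others. It rose by 3.20 ± 0.33 on the log2 scale (SE; edgeR adjusted p = 2.2e-06). Its share of the 3 ATP-Mg/phosphate carriers, per merged exon length, was 0.295% to 0.515% in control, 3.86% to 4.37% after D-gal/LPS and 1.07% to 2.75% with WZB.

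The pyrimidine nucleotide carrier Slc25a36 had 63, 51 and 55 counts in control, 200, 123 and 195 after D-gal/LPS, then 115, 111 and 117 with WZB, control apart from both. It rose by 1.67 ± 0.20 (edgeR adjusted p = 7.57e-06). Slc25a30, an uncoupling-like carrier, read 3.51, 2.96 and 2.61 CPM in control, 10.9, 6.26 and 7.49 after D-gal/LPS, then 10.54, 6.41 and 7.68 with WZB. It rose by 1.45 ± 0.25 (edgeR adjusted p = 0.000252), and the treated groups overlapped. Slc25a4, the ADP/ATP carrier of heart and muscle, had 32, 50 and 51 counts in control, 110, 98 and 130 after D-gal/LPS, then 107, 106 and 125 with WZB. It rose by 1.42 ± 0.20 (edgeR adjusted p = 3.81e-05), and it was 0.743% to 1.23% of Slc25a4 plus Slc25a5 per merged exon length in control, 2.13% to 2.57% after D-gal/LPS and 1.90% to 1.92% with WZB. Summed muscle markers were at most 1.04 CPM in any library, and which cells held the Slc25a4 transcripts was not tested.

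By role, the calls after D-gal/LPS, the large changes included, lay in several groups of carriers. Of all genes, as given above, 29.3% fell and 29.1% rose, and no role was tested as a set. Of 6 carriers of di- and tricarboxylates and aspartate 1 fell, the dicarboxylate carrier Slc25a10. The acylcarnitine carrier Slc25a20 fell. Of 5 tested amino acid carriers 3 fell: Slc25a29, the glycine carrier Slc25a38 (log2 fold change -0.46) and the branched-chain amino acid carrier Slc25a44 (-0.85, from 50.1 to 55.6 CPM in control to 25.8 to 32.5). Of 9 carriers of cofactors and nucleotides 4 fell, among them Slc25a51, the S-adenosylmethionine carrier Slc25a26 (-0.63, a call lost in 10 alternatives) and the coenzyme A carrier Slc25a42 (-0.43), and 2 rose, Slc25a36 and the peroxisomal carrier Slc25a17 (0.45). Of 4 carriers of iron and glutathione 1 fell, mitoferrin-1 Slc25a37 (-0.47), while 7 of 7 tested erythroid markers were higher; Slc25a37 is known for supplying iron for heme in erythroid cells. Of 6 tested carriers of phosphate and adenine nucleotides 3 rose, Slc25a4, Slc25a24 and the phosphate carrier Slc25a3 (0.44), and Slc25a25 fell.

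With WZB before D-gal/LPS, 13 carriers were higher than with D-gal/LPS alone and none lower. All-gene shares were 13.8% and 14.7%, 28.5% in all, and 31.7% of the 41 tested carriers were higher. The median log2 fold change of the carriers was 0.28 and of all genes -0.02. Unadjusted p under 0.05 held for 2 lower carriers, Slc25a24 and Slc25a28, and DESeq2 called 1 lower, Slc25a28. No carrier was called at least 2-fold changed, where 1.33% of all genes were so called higher and 4.48% lower. Groups did not overlap for 19 of 41 carriers, against 45.3% of all genes. The scaling mattered here: with totals only, the median of all genes moved from -0.02 to -0.22, 850 genes were higher and 3290 lower in place of 1873 and 2001, and 9 carriers were higher and 5 lower. With upper-quartile scaling 2358 genes were higher and 1643 lower.

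**Figure D4:**
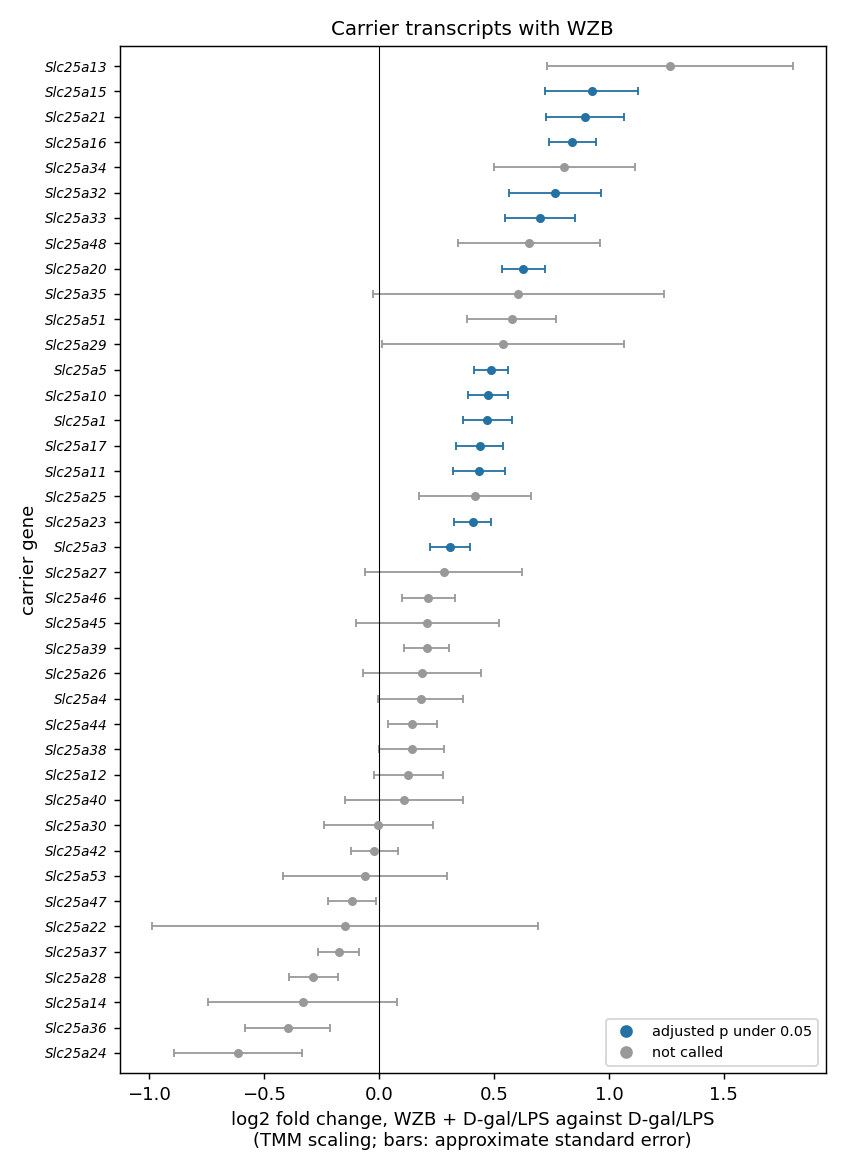
Log2 fold change of 40 of the 41 tested carriers in WZB + D-gal/LPS against D-gal/LPS with approximate standard errors, blue where the adjusted p was under 0.05. The 13 called carriers lie between 0.31 and 0.93; Slc25a13 lies above them with a wide error.

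Among the 13 were carriers of phosphate and adenine nucleotides. Slc25a5 read 184, 170.1 and 172 CPM in control, 184, 208 and 204 after D-gal/LPS, then 271, 285 and 278 with WZB, the last group above all other libraries. It was higher with WZB by 0.49 ± 0.07 on the log2 scale (edgeR adjusted p = 0.000391). The phosphate carrier Slc25a3 read 128, 115 and 143 CPM, then 167, 178 and 179.5, then 206, 227 and 217, each group above the one before. It was higher with WZB by 0.31 ± 0.09 (edgeR adjusted p = 0.0166), a call lost in 8 alternatives. Slc25a23 read 226, 227 and 255 CPM in control, 239.7, 272 and 241 after D-gal/LPS, then 334, 339 and 324 with WZB, again with the WZB libraries above the rest. It was higher by 0.41 ± 0.08 (edgeR adjusted p = 0.00213).

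Of carriers of carboxylates 4 of 6 were higher, where 13.8% of all genes were. Slc25a10 read 98.4, 110.3 and 119.9 CPM in control, 70.9, 71.8 and 73.6 after D-gal/LPS, then 101, 104 and 95.0 with WZB. The D-gal/LPS group lay below all others and the other groups overlapped. It was lower after D-gal/LPS by 0.60 ± 0.09 and higher with WZB by 0.47 ± 0.09 on the log2 scale (edgeR adjusted p = 4.8e-05 and 0.00127). Slc25a21, a carrier of oxoadipate and oxoglutarate, was higher by 0.89 ± 0.17, the citrate carrier Slc25a1 by 0.47 ± 0.10 and the oxoglutarate-malate carrier Slc25a11 by 0.43 ± 0.11. Genes on the other strand share 8.92% of the exon bases of Slc25a11 (Rnf167), 6.6% of Slc25a10 (Gm11788), 3.88% of Slc25a21 (Pax9), 3.17% of Slc25a23 (Gm17168), 3% of Slc25a26 (Lrig1), and 6.33% (Gm31748) and 1.53% (Gm27223) of Slc25a37. Without knowing the strandedness, reads from the shared bases of such pairs cannot be told apart.

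The acylcarnitine carrier Slc25a20 had the same shape. Control libraries read 84.4, 89.1 and 82.3 CPM; 49.5, 52.1 and 51.7 were read after D-gal/LPS, then 69.6, 88.4 and 78.8 with WZB, the D-gal/LPS group below all others. It was lower after D-gal/LPS by 0.74 ± 0.09 and higher with WZB by 0.63 ± 0.09 (edgeR adjusted p = 1.68e-05 and 0.000334). These 2 carriers, Slc25a10 and Slc25a20, were lower after D-gal/LPS and higher with WZB by the test. Slc25a51 missed the second call (log2 fold change 0.58, edgeR adjusted p = 0.0512) and gained it in 6 of 19 alternatives. Against control, WZB gave no call for Slc25a10 or Slc25a20 (log2 fold change -0.13 and -0.11, edgeR adjusted p = 0.207 and 0.319). With total-count scaling both were called lower than control, at -0.39 and -0.37 (edgeR adjusted p = 0.00153 and 0.00256), and both FPKM alternatives called them too.

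The ornithine carrier Slc25a15, which feeds the urea cycle, read 159, 90.4 and 125 CPM in control, 131, 160.3 and 144 after D-gal/LPS, then 230.0, 310.4 and 288 with WZB. All WZB libraries lay above the rest, and the other groups overlapped. It was higher by 0.93 ± 0.20 with WZB (edgeR adjusted p = 0.0104). Slc25a16, linked to coenzyme A, read 45.8, 44.2 and 44.3 CPM, then 40.1, 41.2 and 35.8, then 61.1, 76.6 and 72.0, and was higher by 0.84 ± 0.10 (edgeR adjusted p = 7.0e-05). The folate and FAD carrier Slc25a32 (0.77), the pyrimidine nucleotide carrier Slc25a33 (0.70, with 14.9% of its exon bases shared with Gm13068 on the other strand) and Slc25a17 (0.44) were also higher. No carrier of amino acids other than Slc25a15, of iron or glutathione, or of the uncoupling-like and less defined kind was called.

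**Figure D5:**
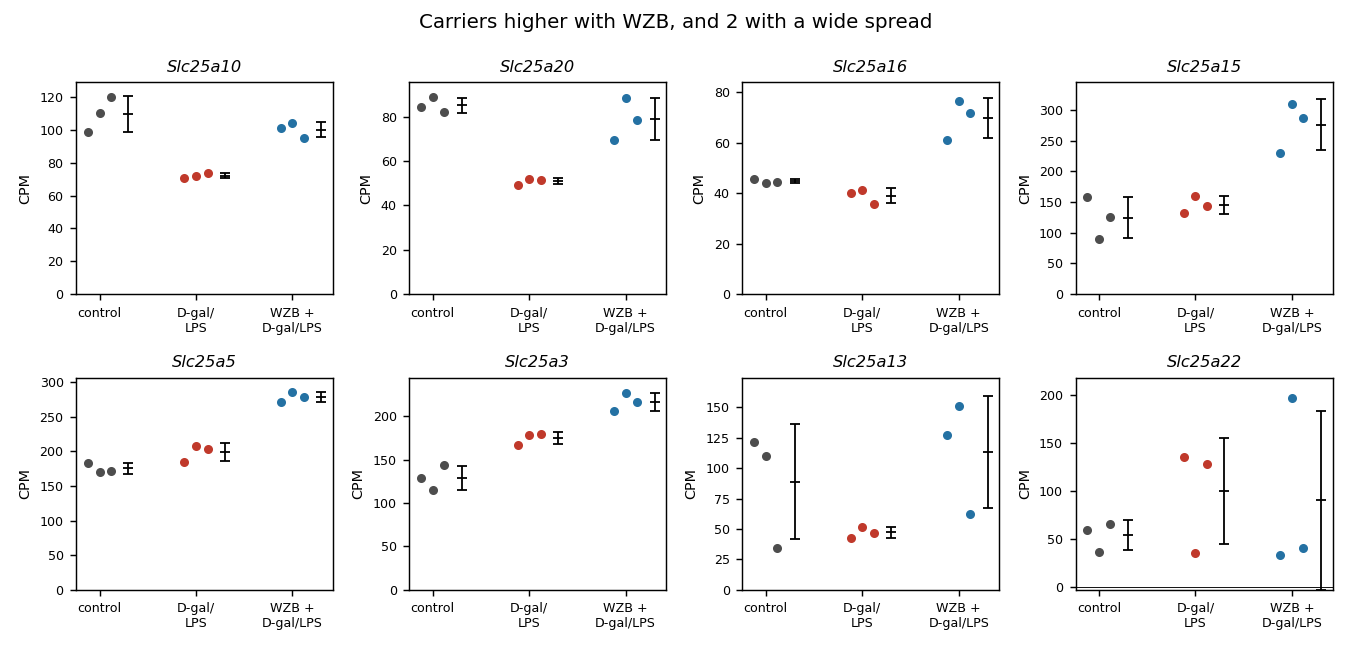
CPM in each library for 6 carriers higher with WZB and for Slc25a13 and Slc25a22, points for libraries and a bar for mean ± SD of 3. Slc25a10 and Slc25a20 dip after D-gal/LPS, Slc25a16, Slc25a15 and Slc25a5 stand above both other groups with WZB, and Slc25a22 and Slc25a13 split within groups.

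Against control, WZB + D-gal/LPS had 14 carriers higher and 9 lower (32.6% and 28.0% of all genes, 60.6% in all), of which 5 and 4 at least 2-fold (16.9% and 13.7% of all genes). The median log2 fold change was -0.04 for the carriers and 0.07 for all genes. The comparison shares its libraries with the ones above. Groups did not overlap for 27 of 41 carriers, against 65.9% of all genes. Of the 14 carriers lower after D-gal/LPS, 9 were lower here too, among them Slc25a25, Slc25a29, Slc25a37, Slc25a42, Slc25a44, Slc25a45, Slc25a47 and Slc25a51. All 6 carriers higher after D-gal/LPS were higher here, and Slc25a39 was higher only here. The totals-only scaling gave 12 higher and 16 lower.

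Slc25a13 and Slc25a22 split within groups. Slc25a13, the aspartate-glutamate carrier citrin, had 1982, 1824 and 662 counts in control, 744, 788 and 788 after D-gal/LPS, then 1800, 2004 and 1013 with WZB. It was not called after D-gal/LPS or with WZB against D-gal/LPS (edgeR adjusted p = 0.190 and 0.136). In each of these comparisons 18 of 19 alternatives gave no call either. Only the fit without control replicate 3, the control of 662 counts, called it. There it was lower after D-gal/LPS by 1.30 and higher with WZB by 1.27 (edgeR adjusted p = 0.0222 and 0.0338). With all libraries the change with WZB was also 1.27. The glutamate carrier Slc25a22 had 976, 600 and 1270 counts in control, 2335, 548 and 2173 after D-gal/LPS, then 467, 2614 and 661 with WZB. Its largest library was 5.96 times the smallest in the WZB group and 3.74 times in the D-gal/LPS group, a spread that 0.467% and 0.538% of 7067 genes reached. No other gene's exons overlap either carrier.

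Other proteins of mitochondrial transport and the enzymes that use the carried solutes were read beside the carriers. Of 21 tested transport genes outside the family 6 rose and 4 fell after D-gal/LPS (median log2 fold change 0.10), and 9 were higher and none lower with WZB (0.26, all genes -0.02). Of all genes, as given above, 29.1% rose and 29.3% fell after D-gal/LPS, and 13.8% were higher and 14.7% lower with WZB, so that 6 of 21 is near the background share. The porin Vdac1 had means of 94.0, 124.8 and 190.8 CPM in control, D-gal/LPS and WZB and was higher in both comparisons (edgeR adjusted p = 0.000590 and 0.000110). Of 11 tested genes for importing carriers 6 fell after D-gal/LPS, among them Timm9, a chaperone that hands carriers to the inner membrane, which had means of 20.9, 7.09 and 8.18 CPM in the 3 groups and an edgeR adjusted p of 6.2e-06, and 2 were higher with WZB (medians -0.45 and 0.25). Of 52 partner enzymes 23 fell and 10 rose after D-gal/LPS, and 35 were higher and 2 lower with WZB (medians -0.21 and 0.43). Nags, the source of N-acetylglutamate for the urea cycle, fell from 52.6 to 5.00 CPM and was 3.01 with WZB (edgeR adjusted p = 2.4e-10 after D-gal/LPS). It was the 1 gene lower with WZB among 7 of the urea cycle and ornithine metabolism, of which the other 6 were higher with WZB, while after D-gal/LPS 2 of the 7 rose and 3 fell. Of 4 carnitine genes read as partners of Slc25a20, 3 fell and 3 were higher with WZB: the acyltransferases Cpt1a and Cpt2 and the plasma membrane carnitine transporter Slc22a5. These were chosen after their values were seen. Against control, 3 of the 4 carnitine genes were lower with WZB (median log2 fold change -0.46), where 28.0% of all genes were lower. Of 3 tested family members under other symbols 2 rose and 0 fell after D-gal/LPS. With WZB against D-gal/LPS 1 was higher, Mtch2, and 1 lower, Ucp2. All 3 were higher with WZB than in control. The uncoupling protein Ucp2 had means of 24.1, 55.0 and 33.0 CPM, higher after D-gal/LPS (edgeR adjusted p = 2.5e-06) and lower with WZB (edgeR adjusted p = 0.000665).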

How the data were processed

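The authors deposited 1 table of read counts and FPKM values per gene and library. The deposited counts, whole numbers, were used for every main test, and the deposited FPKM for 2 alternatives and for levels. Per the submitters' processing notes the build was GRCm38.p4 (mm10), with R 4.1.2 and limma among the tools. Not given in the sources used here are aligner, counter, annotation and strandedness. Of its columns, 3 matched no labelled sample and were not used. Library totals were 15072509 to 18106895 counts.

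Genes kept by filterByExpr (13583) entered 1 edgeR 4.0.16 quasi-likelihood fit in R 4.3.3 of 9 libraries and 3 groups, with TMM factors, robust estimation, no block and Benjamini-Hochberg adjustment over all genes. Approximate standard errors are the log2 fold change over the square root of F. DESeq2 1.42.0 and limma 3.58.1 served as alternatives. The script was tested on simulated data, with 200 changed genes among 12690 tested. It recovered 82% of 2-fold and 33% of 1.5-fold changes, with 10 false calls, so small changes can be missed. In the real data 58.4% of genes were called after D-gal/LPS, a far larger part than was changed in the simulation. These rates therefore need not hold for the real data. Members and lists were chosen with earlier results of these data known. By the rule for named genes every carrier may be named, and of a list the 3 with the smallest adjusted p per comparison. Promoter windows are RefSeq's. The values of 1 carrier are not reported here; it is included in the counts and sums.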

Additional observations from a re-analysis of the deposited data

How the results depend on the processing

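Alternative values of the 41 tested carriers numbered 770, 768 and 770 in D-gal/LPS against control, WZB against D-gal/LPS and WZB against control. Of these, 716, 719 and 709 kept their side of the threshold. A call was lost in 12, 21 and 26 and gained in 42, 28 and 35. None of the called values reversed. Values without a call in either fit count as kept even where their sign changed. Carriers lower with WZB than with D-gal/LPS, 0 in the report, were 1 with DESeq2 size factors or DESeq2 (Slc25a28), 2 with a filter of 5 CPM or log2(FPKM + 0.1), 4 with log2(FPKM + 1), 5 with total-count scaling and 0 to 2 when a library was left out, the 2 (Slc25a36 and Slc25a37) without D-gal/LPS replicate 2. Carriers lower with WZB than in control, 9, were 16 with total-count scaling, 18 with log2(FPKM + 1) and 17 with log2(FPKM + 0.1). The cause was not tested. Total-count scaling moved the median of all genes to -0.18 in that comparison, with 3248 genes higher and 5061 lower in place of 4430 and 3806. With total-count scaling or FPKM, 4 of the 13 carriers higher with WZB (Slc25a1, Slc25a3, Slc25a11 and Slc25a17) were not called. Slc25a1 against control was lost in 13 of 19 alternatives and Slc25a51 in 9.

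The labels state no pairing by replicate number. Deviations of same-numbered libraries from their group means correlated at -0.080 to 0.060, which gives no sign of pairing. With 3 libraries per group this check cannot exclude it. With the replicate block, 16 carriers were lower after D-gal/LPS, adding Slc25a27 and Slc25a35, 8 lower with WZB than in control, losing Slc25a51, and the counts of higher carriers, 6, 13 and 14, did not move. Counts under 30 per library, as for Slc25a14, Slc25a35 and Slc25a53, limit what could be called.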
